A study of Mus musculus with 12 samples.

Results

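The mouse mitochondrial genome carries 37 genes, and all 37 were found among the 48795 gene identifiers of the count table by taking every identifier whose symbol starts with mt-. They comprise 13 messenger RNAs (mRNAs), 2 ribosomal RNAs (rRNAs) and 22 transfer RNAs (tRNAs). Counts were high enough to test 36 of them; the exception was mt-Tf, with 4 counts over all libraries. They were followed across 12 libraries of prostate cells taken as luminal, the epithelium that lines the prostate ducts. The cells came from C57BL/6 wild types, 6 to 8 weeks of age, with no treatment named in the labels. All libraries came from cells negative for the endothelial marker CD31, the leukocyte marker CD45 and the red cell marker Ter119. These cells were sorted into 6 populations of 2 libraries each: LY6D+ SCA1high, LY6D+ SCA1int, LY6D+ SCA1low, LY6D- SCA1high, LY6D- SCA1int and LY6D- SCA1low, where SCA1 is the surface product of Ly6a and int stands for an intermediate level. The series text calls the libraries biological replicates. No label ties a library to its own animal or pool, and the p-values therefore cover only the library-to-library spread, which may be technical. In bulk samples such as these, fewer cells of a type and less RNA per cell cannot be told apart.

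Mitochondrial DNA encodes core subunits of the respiratory chain and of ATP synthase, together with the rRNAs and tRNAs needed to translate them inside the organelle. Nuclear DNA encodes the remaining subunits and the whole machinery that copies, transcribes and processes mitochondrial DNA. Both strands of the circle are transcribed as long precursors that are cut at the tRNAs, and most of the released mRNAs and rRNAs then receive short A tails. Luminal prostate cells are secretory, and prostate epithelium is known for an unusual citrate metabolism.

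Libraries held 8436185 to 20022077 counts. Replicate libraries of a population correlated across all tested genes at r = 0.658 to 0.707. Their median absolute log2 difference was 0.152 to 0.484 for the mitochondrial mRNAs and rRNAs, 0.694 to 1.35 for the mitochondrial tRNAs and 0.868 to 1.19 for all genes. By correlation 10 of the 12 libraries were closest to a library of another population. LY6D- SCA1low replicate 2 correlated with LY6D- SCA1high replicate 1 at r = 0.729 and with its own replicate at r = 0.676, and LY6D+ SCA1high replicate 2 was the shallowest library. Results without this pair, called the doubted libraries, are given beside those that move. LY6D+ SCA1high replicate 1 is not in the pair, although it correlated with LY6D+ SCA1int replicate 1 at r = 0.731 and with its own replicate at r = 0.658. Results without that library are given separately where they move. The epithelial keratin gene Krt8 was present in every library, at 66.4 to 276 CPM (counts normalised to library size, with TMM factors that correct for differences in RNA composition). The leukocyte gene Ptprc, which encodes the CD45 of the depletion gate, was at 0 to 0.216 CPM. Pecam1, which encodes CD31, reached 401 to 573 CPM in LY6D- SCA1high against 2.43 to 159 CPM elsewhere. In LY6D+ SCA1high 12 basal epithelial genes summed to 4675 to 4909 CPM and 16 secretory luminal genes to 2213 to 2674 CPM. In LY6D+ SCA1int these sums were 3588 to 5181 and 2771 to 3575 CPM. The luminal sum was the higher one in the other populations. How far each population is luminal was not tested.

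The library kit primes on runs of A and reads the 3′ ends of RNA, so the ends of the members, where its reads are expected, are shown first. The last 30 bases of 7 mRNAs are given in the sense direction from GENCODE M21 transcripts on GRCm38, with the stop codon, or the single T of an incomplete one, in capitals. Of the 13 mRNAs as annotated, 10 end in a complete stop codon and 3 (mt-Co3, mt-Nd4 and mt-Cytb) end in a single T. Polyadenylation is known to complete such a T to a stop. The last 2 bases of mt-Nd1 and of mt-Nd2 are also annotated as part of the tRNA genes mt-Ti and mt-Tw, and where these mRNAs end in the cells was not tested.
mt-Co1: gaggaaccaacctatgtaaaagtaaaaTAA
mt-Co3: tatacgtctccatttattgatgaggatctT
mt-Nd4: gtccaaaactaattacaggcctgacaataT
mt-Nd5: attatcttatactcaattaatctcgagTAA
mt-Nd6: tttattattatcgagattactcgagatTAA
mt-Cytb: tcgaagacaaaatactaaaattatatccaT
mt-Atp6: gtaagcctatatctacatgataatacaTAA
These ends lie at chrM:6843-6872, chrM:9361-9390, chrM:11515-11544, chrM:13536-13565, chrM:13552-13581, chrM:15259-15288 and chrM:8578-8607 in that order. All are on the plus strand except that of mt-Nd6, which is on the minus strand.

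Neither rRNA ends in a run of A in the annotation, and their most A-rich windows of 20 bases lie inside the transcripts, on the plus strand. They are shown with A in capitals because internal A runs can also be primed. The window of mt-Rnr1 (chrM:725-744) holds 15 A and lies 280 bases from the 3′ end, and that of mt-Rnr2 (chrM:1488-1507) holds 16 A and lies 1168 bases from the end.
mt-Rnr1: AAAAgAAtcAAAcAtAAAAA
mt-Rnr2: AAAAAAAcAAcAAAAtcAAA
Where within a transcript the reads fell was not tested.

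Some member genes abut or overlap, and 3 tRNA sequences show this, with the bases that a neighbouring gene also covers in capitals. The gene mt-Ts1 (chrM:6870-6938, minus strand), for a serine tRNA, overlaps the end of mt-Co1 by 3 bases on the other strand. The isoleucine tRNA gene mt-Ti (chrM:3706-3774, plus strand) shares 2 bases with mt-Nd1 and 3 with the glutamine tRNA gene mt-Tq (chrM:3772-3842, minus strand).
mt-Ts1: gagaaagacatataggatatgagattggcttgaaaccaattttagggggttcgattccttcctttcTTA
mt-Ti: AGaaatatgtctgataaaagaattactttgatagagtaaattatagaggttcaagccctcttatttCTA
mt-Tq: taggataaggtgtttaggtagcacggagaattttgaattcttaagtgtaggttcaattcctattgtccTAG

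Reads at such neighbours may be counted for more than 1 gene. Among 50 genes with at least 10000 counts and an exon of an opposite-strand gene over their last 200 bases, the opposite gene held a median of 0.995 times the gene's own count, and in 38 of the 50 it held at least 0.5 times. At these genes, reads were thus counted for genes on either strand and for more than 1 gene. The members overlap by far fewer bases, and how many of their reads were shared was not tested. Over all libraries mt-Tq held 46188 counts and mt-Ti 49411. For mt-Ts1 there were 121232 counts, 24.8% of those of the adjoining mt-Co1. The minus-strand mRNA mt-Nd6, whose end overlaps that of mt-Nd5 by 14 bases, held 48510 counts against 88536 for mt-Nd5. By library, mt-Tq stood at 71.3% to 106.7% of mt-Ti, mt-Ts1 at 16.29% to 35.25% of mt-Co1 and mt-Nd6 at 27.04% to 93.79% of mt-Nd5. The values of these tRNAs and of mt-Nd6 cannot be told apart from reads of their neighbours.

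Nuclear copies of mitochondrial DNA took the same reads again. At 95% or more identity over at least 200 bases, 11 nuclear pseudogenes matched a mitochondrial transcript, most of them in a stretch of chromosome 1. On GRCm38, Gm28437 (chr1:24613189-24613971) is identical to mt-Co3 over 783 bases and held 605252 counts against 605157 for mt-Co3. The copies Gm28661 of mt-Co2, Gm10925 of mt-Atp6 and Gm28438 of mt-Nd3 likewise stood at 100% to 100.2% of the mitochondrial gene in each of the 12 libraries. Gm29216, which matches 483 bases of mt-Co1 at 99.79% identity, stood at 75.05%, and Gm28439, which matches 876 bases of mt-Nd4, at 17.22%. All counts of members called below were the same after the 11 copies were left out of the table.

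**Figure D1:**
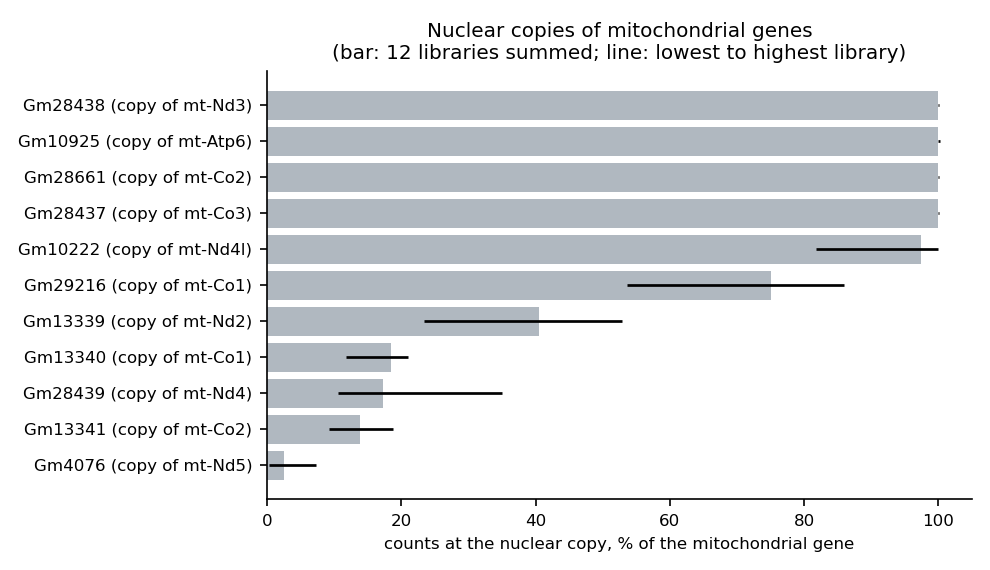
Counts at 11 nuclear pseudogene copies, in percent of the counts of the mitochondrial gene each one copies (bars, sums of 12 libraries; lines, lowest to highest library). Gm28437 (mt-Co3), Gm28661 (mt-Co2), Gm10925 (mt-Atp6) and Gm28438 (mt-Nd3) stood at 100% to 100.2% in every library, Gm13341, another copy of mt-Co2, at 13.9%, and Gm4076, a copy of mt-Nd5, at 2.47%.

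Mitochondrially encoded RNA was lowest in SCA1high cells and highest in SCA1low cells, at either LY6D state. The 13 mRNAs summed to 10600 ± 728 CPM in LY6D+ SCA1high, 14500 ± 2440 in LY6D+ SCA1int and 20680 ± 1464 in LY6D+ SCA1low (mean ± SD, n = 2 libraries each). In LY6D- cells the sums were 12560 ± 2086, 20140 ± 2927 and 28350 ± 4172 CPM. Across the 4 SCA1high libraries the sum ran from 10090 to 14040 CPM and across the 4 SCA1low libraries from 19650 to 31300 CPM, so these groups did not overlap. The SCA1int libraries, at 12780 to 22210 CPM, overlapped both. In order of the means, LY6D- SCA1int and LY6D+ SCA1low, next to each other, differed by less than the larger of their SDs. So did LY6D+ SCA1high and LY6D- SCA1high, and LY6D- SCA1high and LY6D+ SCA1int.

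Both rRNAs in sum followed the same SCA1 order within each LY6D state. Between the states, the rRNA mean of LY6D- SCA1high, at 16740 CPM, lay above that of LY6D+ SCA1int, at 15600 CPM, unlike the mRNAs. The summed rRNA level was 7286 to 22510 CPM in SCA1high, 15040 to 26830 CPM in SCA1int and 30550 to 45860 CPM in SCA1low. As a share of all counts, with no scaling factor, the 37 members took 2.26% and 3.14% in LY6D+ SCA1high, 3.26% and 3.45% in LY6D+ SCA1int, and 4.91% and 4.37% in LY6D+ SCA1low. In LY6D- cells the shares were 2.97% and 4.61% in SCA1high, 4.57% and 4.81% in SCA1int, and 5.93% and 7.30% in SCA1low. These unscaled shares overlapped slightly, since LY6D- SCA1high replicate 2 lay above LY6D+ SCA1low replicate 2. With features of the nuclear ribosomal RNA repeat and the pseudogene copies left out of the total, the mRNAs took 1.34% to 1.92% in SCA1high and 2.04% to 3.13% in SCA1low, with no overlap.

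**Figure D2:**
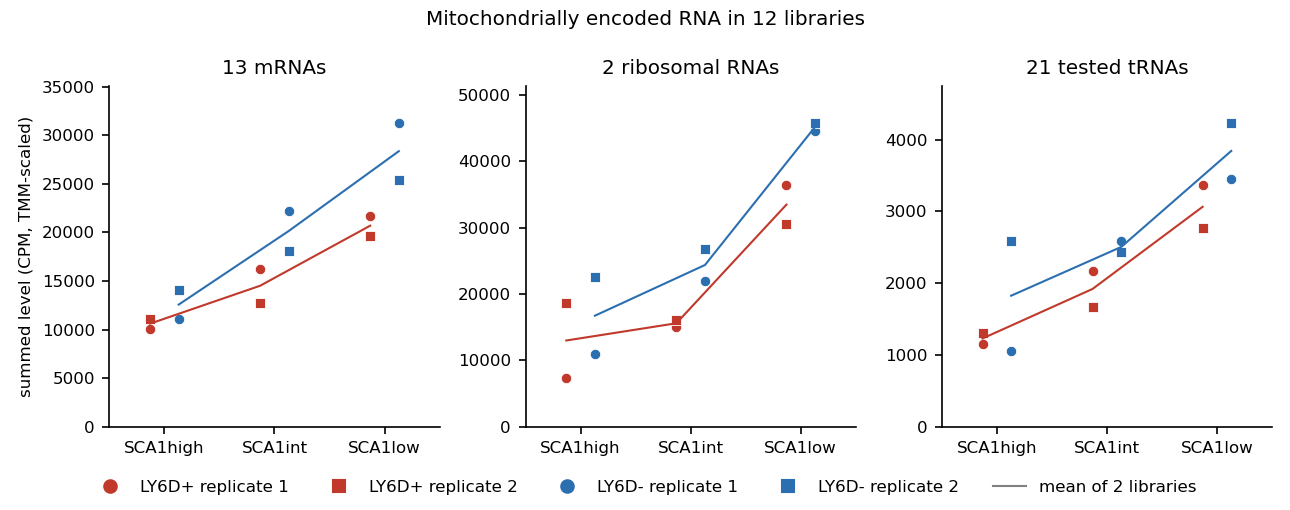
Summed level of the 13 mRNAs, 2 rRNAs and 21 tested tRNAs (vertical axes, TMM-scaled CPM from 0) in each library by SCA1 level, with LY6D+ in red and LY6D- in blue and lines through the means of 2 libraries. The mRNA sums of the SCA1low libraries, 19650 to 31300 CPM, all lie above those of the SCA1high libraries, 10090 to 14040 CPM.

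The main comparison set the 4 SCA1high libraries against the 4 SCA1low libraries, averaged over LY6D, with edgeR's quasi-likelihood test on raw counts and Benjamini-Hochberg adjustment over all 15270 tested genes. A gene is called at an adjusted p below 0.05. Of the 36 tested members, 12 were called and all 12 were lower in SCA1high. Among all tested genes 1.21% were called in either direction, 0.779% as lower and 0.432% as higher in SCA1high. The called members were 12 of the 15 mRNAs and rRNAs and 0 of the 21 tRNAs. DESeq2 called 8 of the 15 mRNAs and rRNAs and 3 of 22 tRNAs, with 5.06% of all genes. All 15 mRNAs and rRNAs had a negative log2 fold change, from -2.33 to -0.73 with a median of -1.23, while the median over all tested genes was 0.15.

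The 12S rRNA gene mt-Rnr1 (chrM:70-1024), for the RNA of the small mitochondrial ribosomal subunit, was at 1757 and 3763 CPM in LY6D+ SCA1high and at 1808 and 3554 CPM in LY6D- SCA1high. It was at 3528 and 3352 CPM in LY6D+ SCA1int and 5642 and 5698 CPM in LY6D- SCA1int. It reached 9962 and 6930 CPM in LY6D+ SCA1low, and 12780 and 14810 CPM in LY6D- SCA1low. The lowest SCA1low library thus lay above every SCA1int and SCA1high library. Its level was lower in SCA1high than in SCA1low by -1.99 ± 0.19 on the log2 scale (SE; adjusted p = 5.05e-08, edgeR).

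The 16S rRNA gene mt-Rnr2 (chrM:1094-2675), for the RNA of the large subunit, had the most counts of all members. It was at 5529 and 14950 CPM in LY6D+ SCA1high, and at 9150 and 18950 CPM in LY6D- SCA1high, a wide spread within each population. In SCA1int it was at 11510 and 12800 CPM, and 16290 and 21130 CPM, in the same order. The LY6D+ SCA1low libraries, at 26450 and 23620 CPM, and the LY6D- SCA1low libraries, at 31760 and 31050 CPM, lay above all others. The log2 fold change of SCA1high against SCA1low was -1.23 ± 0.19 (adjusted p = 0.00018, edgeR).

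All 7 mitochondrial subunits of complex I, which takes electrons from NADH, had negative values, and 5 were called as lower in SCA1high than in SCA1low. The gene mt-Nd5, for a proton-pumping subunit, was at 135 and 227 CPM in LY6D+ SCA1high and at 139 and 262 CPM in LY6D- SCA1high. It was at 363 and 231 CPM in LY6D+ SCA1int, 586 and 503 CPM in LY6D- SCA1int, 506 and 658 CPM in LY6D+ SCA1low, and 1817 and 1328 CPM in LY6D- SCA1low. The SCA1high and SCA1low libraries did not overlap, and the LY6D- SCA1low pair stood far above the rest. The log2 fold change was -2.33 ± 0.31 (adjusted p = 1.75e-05, edgeR), the lowest of the 15 mRNAs and rRNAs.

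The most counted complex I gene was mt-Nd4, another membrane-arm subunit. It was at 1073 and 910 CPM in LY6D+ SCA1high, 1183 and 1313 CPM in LY6D- SCA1high, 1701 and 1599 CPM in LY6D+ SCA1int and 1773 and 1848 CPM in LY6D- SCA1int. LY6D+ SCA1low stood at 2116 and 1878 CPM, and LY6D- SCA1low at 2515 and 1863 CPM. The LY6D states overlapped at SCA1low, whereas SCA1high stayed below SCA1int and SCA1low. Its log2 fold change was -0.91 ± 0.19 (adjusted p = 0.00541, edgeR). The other called complex I subunits were mt-Nd1 at -1.35 ± 0.21, mt-Nd2 at -0.91 ± 0.23 and mt-Nd6 at -1.84 ± 0.37. As said above, the value of mt-Nd6 cannot be told apart from reads of mt-Nd5. The uncalled complex I subunits had values of -0.91 ± 0.27 (mt-Nd3, adjusted p = 0.133) and -1.29 ± 0.39 (mt-Nd4l, adjusted p = 0.141).

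Complex III, which passes electrons to cytochrome c, has 1 mitochondrial subunit, cytochrome b. Its gene mt-Cytb was at 877 and 1070 CPM in LY6D+ SCA1high and 1071 and 1353 CPM in LY6D- SCA1high. It was at 1160 and 1280 CPM in LY6D+ SCA1int, 1933 and 1490 CPM in LY6D- SCA1int, 1933 and 1704 CPM in LY6D+ SCA1low, and 3109 and 2397 CPM in LY6D- SCA1low. SCA1high and SCA1low did not overlap, and SCA1int overlapped both. The log2 fold change was -1.04 ± 0.19 (adjusted p = 0.00204, edgeR).

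All 3 mitochondrial subunits of complex IV, cytochrome c oxidase, fell in SCA1high relative to SCA1low. The gene mt-Co1, for the catalytic subunit, was at 1469 and 1221 CPM in LY6D+ SCA1high and 1950 and 2099 CPM in LY6D- SCA1high. It was at 2662 and 1474 CPM in LY6D+ SCA1int, 3416 and 2942 CPM in LY6D- SCA1int, 3491 and 3075 CPM in LY6D+ SCA1low, and 5218 and 5248 CPM in LY6D- SCA1low. SCA1high lay below SCA1low without overlap, and the LY6D- pair was the higher one at both. The log2 fold change was -1.33 ± 0.17 (adjusted p = 1.08e-05, edgeR).

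The copper-binding subunit gene mt-Co2 had a log2 fold change of -0.98 ± 0.18 (adjusted p = 0.00154, edgeR). For mt-Co3, the most counted mRNA, levels were 2036 and 2526 CPM in LY6D+ SCA1high, 2110 and 2983 CPM in LY6D- SCA1high, 3195 and 2620 CPM in LY6D+ SCA1int and 4719 and 3417 CPM in LY6D- SCA1int. LY6D+ SCA1low stood at 3846 and 2958 CPM, and LY6D- SCA1low at 5754 and 5112 CPM. LY6D- SCA1high replicate 2 lay just above LY6D+ SCA1low replicate 2, so the groups overlapped. The log2 fold change of mt-Co3 was -0.83 ± 0.16 (adjusted p = 0.00309, edgeR).

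Of the 2 membrane subunits of ATP synthase, mt-Atp8 was called and mt-Atp6 was not, but both lay near the threshold. Over the 24 other settings mt-Atp8 lost its call in 7 and mt-Atp6 was called in 15. The proton-channel gene mt-Atp6 was at 1149 and 1300 CPM in LY6D+ SCA1high, 1050 and 1648 CPM in LY6D- SCA1high, 1360 and 1369 CPM in LY6D+ SCA1int and 2029 and 1963 CPM in LY6D- SCA1int. It was at 1586 and 1854 CPM in LY6D+ SCA1low and 3209 and 2062 CPM in LY6D- SCA1low. The groups overlapped, and the log2 fold change was -0.73 ± 0.20 (adjusted p = 0.0709, edgeR). For mt-Atp8, which shares 43 bases with mt-Atp6, the log2 fold change was -2.24 ± 0.57 (adjusted p = 0.0468, edgeR).

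**Figure D3:**
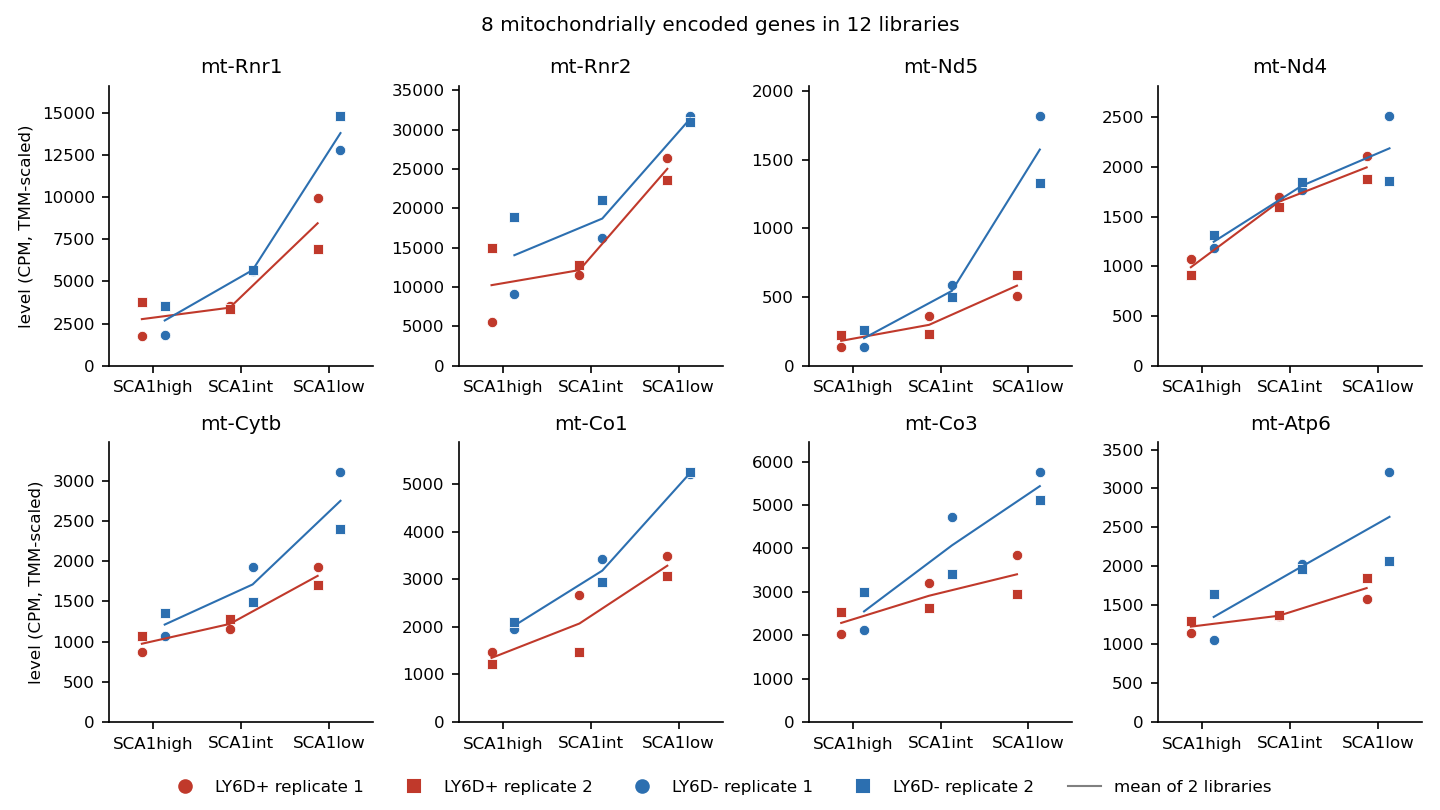
Level of 8 members (vertical axes, TMM-scaled CPM from 0, a different range in each panel) in each library by SCA1 level, with LY6D+ in red and LY6D- in blue and lines through the means of 2 libraries. In mt-Nd5 the LY6D- SCA1low libraries, at 1817 and 1328 CPM, stand apart from the rest, whereas in mt-Nd4 the LY6D states overlap at SCA1low.

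By the ranges of single libraries, the 4 SCA1high libraries all lay below the 4 SCA1low libraries in 9 of 13 mRNAs, 2 of 2 rRNAs and 4 of 21 tRNAs. The same held for 2.65% of all tested genes. How many members were called depended on the scaling. Library size alone gave 6 members, with a median log2 fold change of -0.78 for the 15 mRNAs and rRNAs and of 0.63 for all genes, so the members' median stood 1.41 below that of all genes, against 1.38 below with TMM factors. RLE size factors gave 16 members and a median over all genes of -0.12. Over 24 other settings, each of the 15 had a negative value in all 24, and mt-Rnr1, mt-Nd1, mt-Co1, mt-Nd5 and mt-Nd6 were called in all 24. Of these, mt-Nd6 cannot be told apart from reads of mt-Nd5. Without LY6D+ SCA1high replicate 1 the median of the 15 was -0.96 and that of all genes -0.57, the smallest distance of all settings.

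**Figure D4:**
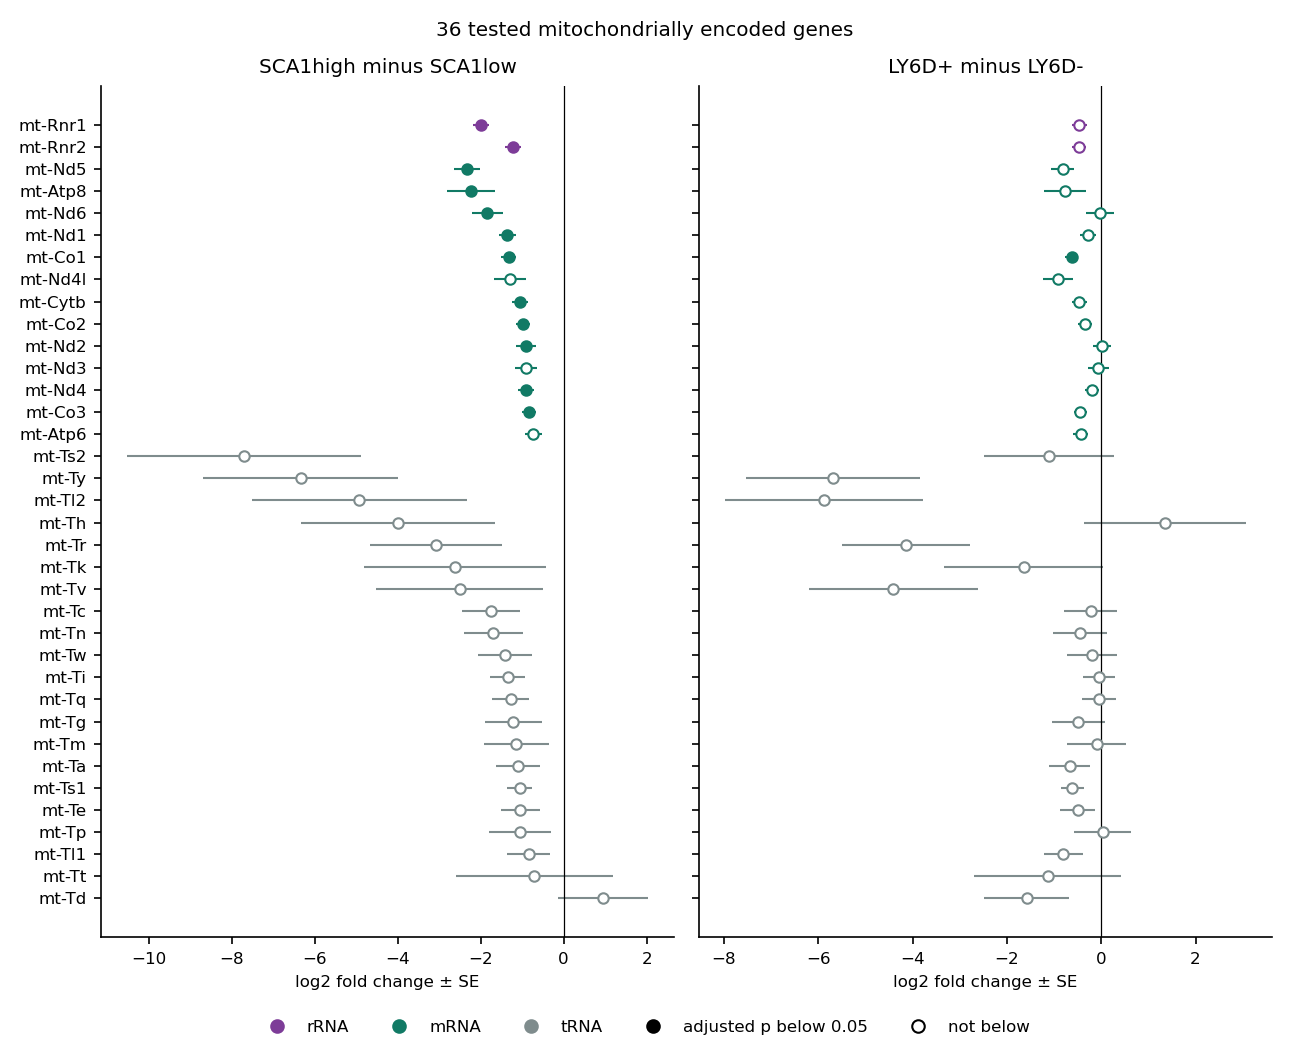
Log2 fold change ± SE of the 36 tested members for SCA1high minus SCA1low (left) and LY6D+ minus LY6D- (right), with the panels on different ranges and filled points for an adjusted p below 0.05. On the left 12 members, all mRNAs or rRNAs, are filled, and 35 of 36 lie below 0; on the right mt-Co1 alone is filled.

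The SCA1 difference was also tested within each LY6D state. In LY6D+ cells 4 of 36 members were lower in SCA1high and none higher, where 0.327% of all tested genes were called in either direction, 0.288% as lower and 0.0393% as higher. They were mt-Rnr1 at -1.61 ± 0.27, mt-Rnr2 at -1.29 ± 0.27, mt-Co1 at -1.29 ± 0.24 and mt-Co2 at -1.22 ± 0.25 (log2 fold change ± SE, edgeR). DESeq2 called none of the 15 mRNAs and rRNAs there, and 1 tRNA, with 5.11% of all genes. Without LY6D+ SCA1high replicate 1 the median of the 15 was -1.06 and that of all genes -1.51, against -1.18 and -0.17 with all libraries, so the members then lay above all genes. In LY6D- cells 8 were lower and none higher, against 0.635% of all tested genes called, 0.393% as lower and 0.242% as higher. They were mt-Rnr1 at -2.36 ± 0.27, mt-Rnr2 at -1.16 ± 0.27, mt-Nd1 at -1.53 ± 0.30, mt-Nd5 at -2.97 ± 0.45, mt-Nd6 at -2.19 ± 0.53, mt-Co1 at -1.37 ± 0.24, mt-Co3 at -1.09 ± 0.23 and mt-Cytb at -1.18 ± 0.27. DESeq2 called 4 of the 15 mRNAs and rRNAs and 2 tRNAs there, with 2.23% of all genes.

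Tests of the difference between the LY6D states (the interaction) called 0 of 36 members in edgeR and 0 in DESeq2, with 0.0393% of all genes called in edgeR, 0.0262% with a negative and 0.0131% with a positive difference. In edgeR 1160 of all 15270 genes had an unadjusted p below 0.05, among them 1 member, mt-Nd5. Its SCA1 fold change in LY6D+ minus that in LY6D- cells was 1.29 ± 0.59 on the log2 scale, with an adjusted p of 0.65. The larger count of called members in LY6D- cells is therefore not shown to be a difference between the states. Single libraries decided this for the rRNAs. For mt-Rnr2 the difference was -0.13 ± 0.37 with all libraries, and -1.34 ± 0.17 (adjusted p = 4.05e-11, edgeR) without LY6D+ SCA1high replicate 2, whose level was 14950 CPM against 5529 CPM in its replicate. For mt-Rnr1 it was 0.75 ± 0.37 with all libraries, and 1.17 ± 0.27 (adjusted p = 0.0367, edgeR) without LY6D+ SCA1high replicate 1 or 1.17 ± 0.25 (adjusted p = 0.00444, edgeR) without LY6D- SCA1high replicate 2. A population left with 1 library adds no spread of its own to these values.

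Of the neighbouring SCA1 steps, that from SCA1int to SCA1low gave calls in both rRNAs. Relative to SCA1low, SCA1int was lower in mt-Rnr1 by -1.29 ± 0.19 on the log2 scale (adjusted p = 0.000179, edgeR) and in mt-Rnr2 by -0.89 ± 0.19 (adjusted p = 0.0186, edgeR). That was 2 of 36 members, both lower, with 0.334% of all tested genes called, 0.255% as lower and 0.0786% as higher. All 15 mRNAs and rRNAs were negative there, with a median of -0.63 against 0.21 for all genes. From SCA1high to SCA1int, 0 of 36 members were called in edgeR, and 0 in DESeq2, which called 2.79% of all genes. Of all genes 0.138% were called in edgeR, 0.124% as lower and 0.0131% as higher in SCA1high. In edgeR 15 members had an unadjusted p below 0.05, against 1348 of all 15270 genes. All 15 mRNAs and rRNAs were again negative, with a median of -0.64 against -0.10 for all genes. Without LY6D+ SCA1high replicate 1 the medians were -0.59 and -0.75, so the members no longer lay below all genes. These counts moved with single libraries. The SCA1int step gave 8 members without LY6D- SCA1low replicate 2, and the SCA1high to SCA1int step gave 6 without LY6D- SCA1low replicate 1.

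The make-up of the mitochondrial pool was described as well, without a test. Shares were taken of the summed counts of the 13 mRNAs and 2 rRNAs within each library, so that scaling plays no part. The share of mt-Rnr1 was 10.2% ± 1.83 in SCA1high, 12.1% ± 0.76 in SCA1int and 17.1% ± 2.86 in SCA1low (mean ± SD, n = 4), with the highest SCA1high library at 12.6% and the lowest SCA1low library at 13.8%. The share of mt-Rnr2, at 43.8% ± 9.2 and 44.5% ± 2.25 in SCA1high and SCA1low, overlapped widely. In every population it was higher in replicate 2 than in replicate 1.

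Among the mRNAs, mt-Nd5 took 0.72% ± 0.07 of this pool in SCA1high and 1.61% ± 0.66 in SCA1low, also with no overlap. Within SCA1low its share was 2.40% and 1.86% in LY6D- but 0.87% and 1.31% in LY6D+ libraries. The SCA1 order was reversed for mt-Co3, with 9.48% ± 1.61 in SCA1high and 6.82% ± 0.73 in SCA1low. The same held for mt-Atp6, with 5.06% ± 1.05 and 3.39% ± 0.70, and neither gene overlapped. The shares of the other 11 genes overlapped between these groups. Within a library, the log2 ratio of mt-Nd5 to mt-Nd4 counts was -0.47 and -0.49 in LY6D- SCA1low, where mt-Nd5 was thus closest to mt-Nd4, and between -3.09 and -1.51 in the other 10 libraries. A share that rises lowers all others by construction, and none of these shares was tested.

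The tRNAs together held 422276 of the members' counts, or 5.52%, against 40.5% in mRNAs and 54.0% in rRNAs, and ran from 4 to 121232 counts. The kit needs an A run, and mature tRNAs carry no A tail, so these counts can include precursors and reads of neighbouring genes. SCA1high against SCA1low gave 0 called tRNAs of 21 in edgeR, 10 with an unadjusted p below 0.05, and 3 called in DESeq2. The 12 tRNA genes with at least 10000 counts had log2 fold changes between -1.75 and -0.84 with SEs of 0.30 to 0.77. The lowest adjusted p was that of mt-Ts1, at -1.06 ± 0.30 (adjusted p = 0.0895, edgeR).

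The other 9 tested tRNAs, with at most 5626 counts, had SEs of 1.09 to 2.82 and cannot be ordered. The aspartate tRNA gene mt-Td was the exception in sign, with 0.94 ± 1.09 (adjusted p = 0.762, edgeR). It was at 16.2 and 45.3 CPM in LY6D+ SCA1high, 26.9 and 26.1 CPM in LY6D- SCA1high, 25.7 and 6.99 CPM in LY6D+ SCA1int and 90.6 and 43.8 CPM in LY6D- SCA1int. LY6D+ SCA1low stood at 8.27 and 2.57 CPM, and LY6D- SCA1low at 16.03 and 65.3 CPM, so the groups overlapped.

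By LY6D state, 1 member passed the test. Averaged over SCA1, LY6D+ against LY6D- called 1 of 36 members, mt-Co1, which was lower in LY6D+ by -0.63 ± 0.14 on the log2 scale (adjusted p = 0.0102, edgeR). Among all genes 2.48% were called, 1.21% as lower and 1.27% as higher, so 1 of 36 is near the background. Negative values were found in 33 of 36 members, with a median of -0.44 for the 15 mRNAs and rRNAs against 0.03 for all genes. Without LY6D+ SCA1high replicate 1 these medians were -0.31 and -0.42, so the members no longer lay below all genes. The 12 basal genes, which also moved with LY6D, summed to 2694 to 5181 CPM in LY6D+ and 273 to 2336 CPM in LY6D- libraries. Of these genes 7 were higher and 1 lower in LY6D+. Lower in LY6D+ were also 9 of 12 endothelial genes, with a median of -3.31, and 6 of 16 secretory luminal genes, with a median of -0.76. In these 2 lists 0 genes were called higher. The part of all these genes in the members' values was not tested. The 6 LY6D+ libraries overlapped the 6 LY6D- libraries in all 36 members, where 0.57% of all tested genes lay lower in LY6D+ without overlap. Without the doubted libraries the median of the 15 mRNAs and rRNAs was -0.55 and that of all genes 0.21.

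The exceptions in sign were mt-Nd2 at 0.01 ± 0.19, mt-Th at 1.35 ± 1.72 and mt-Tp at 0.03 ± 0.60. The complex I gene mt-Nd2 was at 778 and 748 CPM in LY6D+ SCA1high, 1331 and 848 CPM in LY6D+ SCA1int and 1440 and 1202 CPM in LY6D+ SCA1low. In LY6D- cells it was at 544 and 761 CPM in SCA1high, 1517 and 932 CPM in SCA1int and 1360 and 1311 CPM in SCA1low, so the LY6D states overlapped throughout. Its sign flipped under RLE size factors, library size alone and scaling by nuclear genes. With RLE size factors or library size alone, 20 of 21 tRNAs were negative in place of 19. The histidine tRNA gene mt-Th had 1095 counts in all, at 0 to 35.0 CPM, and the proline tRNA gene mt-Tp lay at 29.95 to 114 CPM, with the LY6D states overlapping in both. Within SCA1high, SCA1int and SCA1low the LY6D comparison called 0, 0 and 0 members in edgeR, with 4, 7 and 8 at an unadjusted p below 0.05, and 2, 1 and 4 in DESeq2. Over all 15270 genes 1790, 942 and 1840 had an unadjusted p below 0.05 in edgeR, and DESeq2 called 5.29%, 2.92% and 7.51% of its genes. Of all genes, 0.262% were called in SCA1high, 0.124% as lower and 0.138% as higher in LY6D+. In SCA1int these shares were 0.203%, 0.183% and 0.0196%, and in SCA1low 0.472%, 0.0917% and 0.38%.

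The nuclear partners of these subunits were compared in the same fit. Of 75 nuclear genes for subunits of complexes I to V and for cytochrome c, edgeR called 0 between SCA1high and SCA1low, with 6 at an unadjusted p below 0.05, and DESeq2 called 2, both lower in SCA1high. Over all genes in this comparison an unadjusted p below 0.05 was found in 1843 of 15270, while the DESeq2 share was 5.06%, against which its counts here and in the lists that follow are to be read. Negative values were found in 50 of the 75, with a median of -0.24 against 0.15 for all tested genes. By complex, the medians were -0.39 for 36 complex I genes, 0.40 for 4 complex II genes, -0.47 for 9 complex III genes, -0.21 for 11 genes of complex IV and cytochrome c, and -0.05 for 15 ATP synthase genes. Of 4 abundant ones, the ATP synthase gene Atp5mg had a log2 fold change of -0.51 ± 0.26 and the complex IV gene Cox7c of -0.43 ± 0.30. The complex III gene Uqcrh stood at -0.24 ± 0.30 and the complex I gene Ndufa1 at -0.71 ± 0.31.

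These nuclear genes were counted less deeply than the members. Their median SE was 0.70 and their median level 76.2 CPM, against 0.20 and 1615 CPM for the 15 mitochondrial mRNAs and rRNAs. A change of the members' size could thus have been missed in many of them. Whether the mitochondrial and nuclear subunits differed from each other in their SCA1 difference was not tested.

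**Figure D5:**
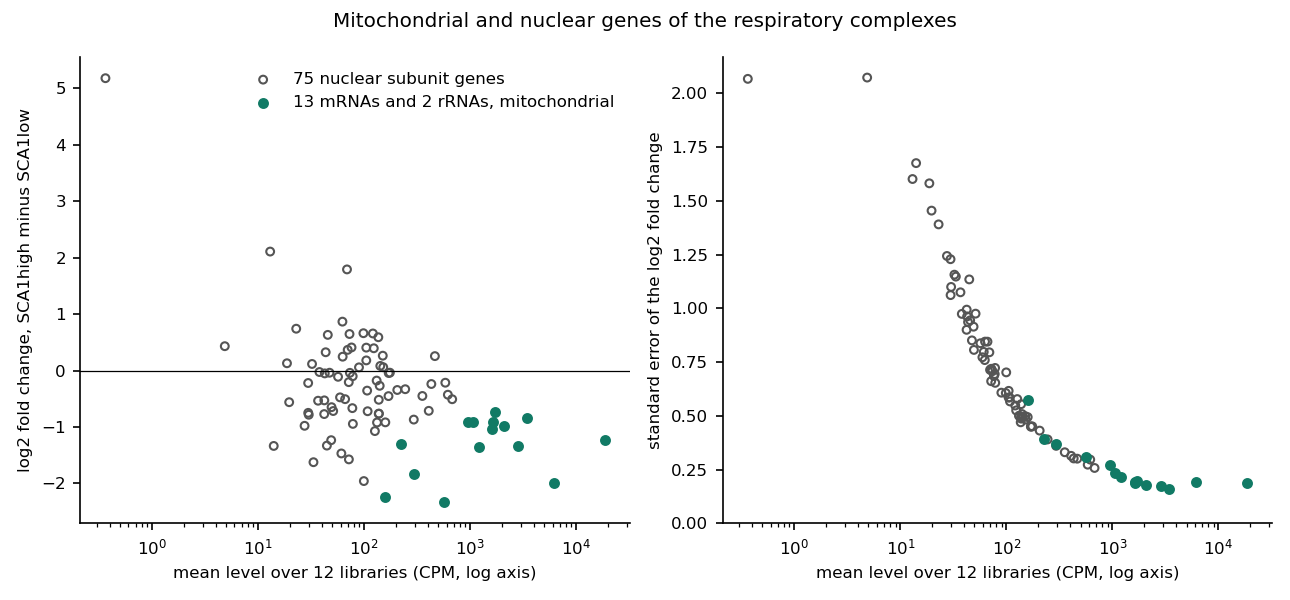
Log2 fold change of SCA1high minus SCA1low (left) and its SE (right) against mean level (log axis, CPM) for 15 mitochondrial mRNAs and rRNAs (filled) and 75 nuclear subunit genes (open). The members lie between -2.33 and -0.73 with SEs of 0.16 to 0.57, and SE falls with level for both sets of genes.

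Genes for the upkeep and expression of mitochondrial DNA gave no call in edgeR either. Of 15 genes of mitochondrial DNA replication and transcription, 11 were tested, 0 were called and 0 had an unadjusted p below 0.05 in edgeR, with 0 called in DESeq2. Tfam, which packages mitochondrial DNA and starts its transcription, had a value of 0.33 ± 1.63. Among 22 genes of mitochondrial RNA processing and stability, edgeR called 0, with 2 at an unadjusted p below 0.05, and DESeq2 called 2. Lrpprc, which stabilises mitochondrial mRNAs, had a value of -0.48 ± 0.84 and its partner Slirp of 0.12 ± 0.54.

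The same was found for translation, regulators and metabolism. For 77 tested genes of mitochondrial ribosomal proteins the counts were 0 in edgeR, 4 unadjusted and 6 in DESeq2, of which 3 were lower in SCA1high, with a median of -0.14. Of 10 regulators of mitochondrial biogenesis, edgeR called 0, with 2 at an unadjusted p below 0.05, and DESeq2 called 2. Of 14 genes of the tricarboxylic acid cycle the numbers were 0, 0 and 1, and of 22 membrane and import proteins 0, 4 and 3.

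Several other readouts moved with SCA1. Features of the nuclear ribosomal RNA repeat took 6.97% to 16.8% of the counts in SCA1high and 19.5% to 24.4% in SCA1low. TMM factors were 1.01 to 1.29 in SCA1high and 0.749 to 0.970 in SCA1low. Malat1, a long RNA held in the nucleus, was lower in SCA1high by -1.19 ± 0.12 on the log2 scale (adjusted p = 1.74e-07, edgeR). In LY6D- cells Malat1 had the SCA1 order of the members. It was at 5972 to 6085 CPM in SCA1high, 9205 to 10020 CPM in SCA1int and 11880 to 13290 CPM in SCA1low. In LY6D+ cells SCA1int, at 15160 to 19160 CPM, overlapped SCA1low, at 12110 to 17160 CPM. With the repeat features left out, 13 members were called and the median of the 15 was -1.25.

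Marker sums of cell types were taken as well. Only those of the secretory luminal genes did not overlap between SCA1high and SCA1low. The 16 secretory luminal genes summed to 2213 to 5517 CPM in SCA1high and 20390 to 104700 CPM in SCA1low, and 7 seminal vesicle genes to 280 to 757 CPM and 487 to 17900 CPM. The 12 endothelial genes, all detected, summed to 3858 to 4344 CPM in LY6D- SCA1high, 1256 to 1501 CPM in LY6D- SCA1int, 298 to 746 CPM in LY6D- SCA1low and 29.7 to 440 CPM in LY6D+ libraries. The 12 basal genes, all detected, summed to 1379 to 4909 CPM in SCA1high and 273 to 3550 CPM in SCA1low. Sums for 12 fibroblast and smooth muscle genes were 481 to 1303 CPM and 244 to 882 CPM. Leukocyte genes, with 10 of 12 detected, gave 0.313 to 90.7 CPM and 15.8 to 212 CPM, and erythroid genes, with 4 of 6 detected, 4.86 to 431 CPM and 7.36 to 828 CPM. Single genes made up much of some sums. In LY6D+ SCA1low, Dcn was at 726 to 807 CPM of a fibroblast and smooth muscle sum of 790 to 882 CPM. Cd52 was there at 79.2 to 204 CPM of a leukocyte sum of 116.5 to 212 CPM. In LY6D- SCA1high, Igfbp3 was at 617 to 806 CPM of a basal sum of 1379 to 1524 CPM. The part of these readouts in the SCA1 difference of the members was not tested.

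The genes most like the members were sought among 3438 nuclear genes whose log2 CPM averaged 5 or more. Likeness was the Pearson correlation, over the 12 libraries, of a gene's log2 CPM with that of the summed mitochondrial mRNAs. The libraries share their SCA1 groups and scaling factors, so these values are a description. The 8 highest were Fgl1 at 0.963, Dnajc10 at 0.962, Pdia3 at 0.961, Sdf2l1 at 0.946, Hsp90b1 at 0.941, Pbsn at 0.940, Isoc2a at 0.939 and Tcaf3 at 0.931. Pbsn encodes the prostate secretory protein probasin, whereas Dnajc10, Pdia3, Sdf2l1 and Hsp90b1 encode proteins of the endoplasmic reticulum that act in protein folding. Pbsn averaged 225 CPM in SCA1high, 1532 CPM in SCA1int and 6181 CPM in SCA1low. Pdia3 averaged 168, 273 and 613 CPM in the same order. Without the doubted libraries the 8 correlations were 0.921 to 0.957.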

How the data were processed

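The labels give 12 QuantSeq 3′ libraries made from 10 to 20 ng of total RNA. The submitters' processing notes name mm10, edgeR, Subread with featureCounts, Picard 1.96, SAMtools 1.3.1, STAR 2.5.1 and cutadapt 1.9.1; for annotation and strand setting, nothing is given in these sources. The authors deposited raw counts for every gene and a table of normalised signal, whose deposited factors equal TMM factors over all genes within a relative 4.4e-16. No molecular identifiers are named, so PCR copies may be counted. Symbols matched 48349 of 48795 identifiers. Coordinates and sequences are from GENCODE M21 (GRCm38).

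Counts were tested in R 4.3.3 with edgeR 4.0.16 (TMM, filterByExpr, 1 mean per population, glmQLFit, glmQLFTest, 6 residual degrees of freedom, Benjamini-Hochberg over 15270 genes). The test was checked on simulated data whose spread between libraries was set below that estimated here, so its power in these data was not measured. SEs are the log2 fold change over the root of F. Correlations used log2(CPM + 1). Same-numbered libraries share a prefix in the submitters' sample names, whose meaning is not stated, so a shared animal or sort day is possible. Over all tested genes their deviations were mostly uncorrelated, so they were not treated as paired. Among the members, the mt-Rnr2 share of the mitochondrial pool was higher, and that of mt-Co3 lower, in replicate 2 of every population. A shared replicate effect in the members was not tested. The members, lists and rules were chosen with earlier results of these data known. Values per library are given for mt-Co1, mt-Nd5, mt-Rnr1, mt-Rnr2, the most counted further member of each complex and members of opposite sign. Alternatives used RLE or library size scaling, nuclear genes only, no ribosomal repeat features, no filter, DESeq2 1.42.0, limma 3.58.1 on the deposited values, a replicate block, no interaction, a 1.5-fold test, each library left out, both doubted libraries left out and, added after seeing the data, no pseudogene copies.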

Additional observations from a re-analysis of the deposited data

Results flagged for a closer look

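The lysine tRNA gene mt-Tk moved in opposite directions with LY6D at neighbouring SCA1 levels. In SCA1int it was at 0 and 0.106 CPM in LY6D+ and at 0.515 and 5.06 CPM in LY6D- libraries, and in SCA1low at 19.6 and 0.622 CPM in LY6D+ and at 0.323 and 0.260 CPM in LY6D- libraries. Every LY6D+ library was below the LY6D- libraries in SCA1int and above them in SCA1low. The fitted log2 fold changes were -5.51 ± 3.50 in SCA1int and 5.08 ± 3.44 in SCA1low, a difference of -10.59 that was not tested. The gene had 406 counts in all, of which 256 were in LY6D+ SCA1low replicate 1.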

How the results depend on the processing

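In every setting run, each member called between groups was lower in the group named first (SCA1high, SCA1int or LY6D+), while the counts moved. The values reported were 12 for SCA1high against SCA1low, 2 for SCA1int against SCA1low, 0 for SCA1high against SCA1int, 4 and 8 within LY6D+ and LY6D-, 1 for LY6D, and 0 for LY6D within each SCA1 level and for the interaction. With RLE size factors SCA1int against SCA1low gave 6, the LY6D- comparison 13, LY6D 3 and LY6D in SCA1low 3. Library size alone gave 6 for SCA1high against SCA1low, 1 for SCA1int against SCA1low, 1 and 2 within LY6D+ and LY6D-, and 5 for LY6D. Scaling by nuclear genes gave 4 and 2, and leaving out the ribosomal repeat features 4 and 3, for SCA1int against SCA1low and for LY6D. Without a filter on low counts the values were 4 for SCA1int against SCA1low, 6 for SCA1high against SCA1int, 9 within LY6D+, 5 for LY6D, and 1, 2 and 3 for LY6D in SCA1high, SCA1int and SCA1low. DESeq2 gave 1 within LY6D+, 6 for LY6D, and 2, 1 and 4 for LY6D in the 3 SCA1 levels. The replicate block gave 4 for SCA1int against SCA1low, 1 for SCA1high against SCA1int and 4 for LY6D. Over all tested genes, deviations of same-numbered libraries correlated at -0.197 to 0.132, above 0.1 in 2 of 15 pairs of populations, so the block was not used. Same-numbered libraries also share a name prefix of unstated meaning, and the mt-Rnr2 share was higher in replicate 2 of every population. For SCA1int against SCA1low, the model without interaction and limma gave 1 each. The test against a 1.5-fold change gave 6, 1, 1, 2 and 0 for SCA1high against SCA1low, SCA1int against SCA1low, within LY6D+, within LY6D- and LY6D. Without both doubted libraries the counts were 5 for SCA1int against SCA1low, 4 for SCA1high against SCA1int, 7 for LY6D, 1 and 2 for LY6D in SCA1high and SCA1int, and 1 for the interaction. Of all genes, the LY6D comparison called 1.94% with RLE size factors, 2.45% with library size alone, 1.98% without a filter and 9.13% in DESeq2. For SCA1high against SCA1low the shares were 1.26% with RLE size factors, 1.71% with library size alone and 0.773% in the 1.5-fold test. The cause of the moves in the members' counts was not tested.

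Leaving out 1 library at a time gave 11 to 17 for SCA1high against SCA1low, 2 to 8 for SCA1int against SCA1low (8 without LY6D- SCA1low replicate 2), 0 to 6 for SCA1high against SCA1int (6 without LY6D- SCA1low replicate 1) and 4 to 11 within LY6D+ (11 without LY6D- SCA1low replicate 2). It gave 6 to 11 within LY6D-, 2 to 8 for LY6D (8 without LY6D- SCA1high replicate 1), 0 to 2, 0 to 3 and 0 to 5 for LY6D in SCA1high, SCA1int and SCA1low (3 without LY6D+ SCA1int replicate 1, 5 without LY6D- SCA1high replicate 1), and 0 to 1 for the interaction (1 without LY6D+ SCA1high replicate 1 or 2, or LY6D- SCA1high replicate 2). A population left with 1 library was assumed to vary like the others. Among the 21 tRNAs, 15 to 20 had a negative LY6D fold change, against 19 as reported. Among the 15 mRNAs and rRNAs its sign turned in 3 with values near 0: mt-Nd2 gave -0.12 with RLE, -0.0364 with library size, -0.0123 with nuclear genes, -0.0157 without repeat features, -0.13 with DESeq2 and -0.12 to 0.16 with a library left out; mt-Nd3 gave -0.28 to 0.17 and mt-Nd6 -0.25 to 0.12 with a library left out, and mt-Nd6 gave 0.00732 with limma. Over all genes, DESeq2 called 1326 for SCA1high against SCA1low and 2394 for LY6D, against 185 and 379 in edgeR. For the 9 tested tRNAs with fewer than 10000 counts, SEs of 1.09 to 2.82 make changes of the size seen in the mRNAs undetectable.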
